A study of Mus musculus with 4 samples.

Results

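The genes examined were 10 members of the BCL2 family, chosen by symbol: the anti-apoptotic genes Bcl2, Bcl2l1, Mcl1, Bcl2a1b and Bcl2a1d, the BH3-only genes Bcl2l11, Bbc3 and Pmaip1, and the pore-forming effector genes Bax and Bak1. All 10 were found, among 13685 genes listed in the 3 tables together, and all 10 were listed in every library. RNA-seq had been done on mouse bone marrow-derived dendritic cells, which were cultured for 7 days from the marrow of C57BL/6 mice at 4 weeks of age, with GM-CSF and IL-4 at 10 ng/ml each. The 4 groups, all carrying IL-4 and GM-CSF and no genetic change named in the labels, were cells given CAF.CM that had been pre-incubated with a Wnt2 antibody, cells given CAF.CM alone (CAF usually stands for cancer-associated fibroblast and CM for conditioned medium), cells given the secreted ligand Wnt2, and cells in control medium. Doses of Wnt2 and antibody, the length of the treatment and an isotype control antibody are not given in the labels.

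The BCL2 family sets whether the outer mitochondrial membrane is breached in the intrinsic pathway of apoptosis. The effectors BAX and BAK oligomerise in that membrane and let cytochrome c out, which starts the caspase cascade. Anti-apoptotic members such as BCL2, BCL-XL, MCL1 and A1 hold the effectors and the BH3-only proteins in check, and BH3-only proteins such as BIM, PUMA and NOXA relieve that check or activate the effectors. Dendritic cells are short-lived, and the balance between BIM and the anti-apoptotic proteins is known to bear on their survival. Much of the control of the family acts on the proteins, which RNA levels do not show.

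Each group had 1 column of values, called a library here, so no difference has a replicate check and none was tested. Ratios are log2 of CPM (reads scaled to the library's size) unless a fold is named, genes at least 2-fold apart are called higher or lower, and intervals are 95% exact binomial intervals that cover counting error only. Reads in listed genes numbered 22791494 for CAF.CM + Wnt2 antibody, 25225220 for CAF.CM, 154399767 for Wnt2 and 143071376 for control medium, so values are less precise in both CAF.CM libraries, and depth and CAF.CM cannot be told apart. The dendritic cell markers Itgax and the MHC class II genes were listed in every library, but Cd209a was not. Itgax was at 30.3, 47.7, 222.8 and 887.6 CPM in the same order. The 13 dendritic cell markers (11 to 12 listed) summed to 1839, 1971, 785 and 3681 CPM. Irf4 (123.8, 171.5, 89.0 and 91.2 CPM) and Zbtb46 (21.2, 17.1, 10.3 and 15.7 CPM) stood higher in both CAF.CM libraries than in control medium. Dpp4, Irf8, Batf3, H2-Aa, H2-Eb1 and Cd74 stood lower there, like Itgax, and Ccr7 and H2-Ab1 lay on either side of control medium. Macrophage and monocyte markers were all listed (12 of 12) and summed to 5741, 8674, 20267 and 29113 CPM, most of it Lyz2 (4425, 6907, 18050 and 25764 CPM). Ly6c2 ran the other way (53.4, 88.6, 20.4 and 18.7 CPM). Adgre1 (331.0, 403.6, 168.6 and 349.2 CPM) and Fcgr1 (7.93, 15.8, 5.98 and 12.7 CPM) were highest with CAF.CM and lowest with Wnt2. The remaining markers stood in the order of the sum, among them Ccr2 (3.965, 18.8, 315.4 and 580.4 CPM). Neutrophil markers (3 to 4 of 12 listed) summed to 107.8, 156.8, 1538 and 597.5 CPM, nearly all of it Mmp8 (99.3, 140.1, 1489 and 543.7 CPM), while Csf3r was at 5.95, 12.6, 35.01 and 48.6 CPM. The 9 fibroblast markers (3 to 6 listed) summed to between 9.02 and 16.5 CPM, but the matrix gene Dcn was at 13.9 and 10.7 CPM in the CAF.CM + Wnt2 antibody and CAF.CM libraries, against 1.01 with Wnt2 and 0.509 in control medium. Of 11 lymphocyte and NK cell markers 0 to 2 were listed, at a sum of at most 2.51 CPM, and of 9 mast cell, basophil and eosinophil markers 1 to 3, at 1.34 to 22.7 CPM. The housekeeping gene Actb was at 618, 1244, 2757 and 3789 CPM. The part of these differences in the results below was not tested, and in such bulk RNA fewer cells of a type cannot be told apart from less RNA per cell.

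Mcl1, which encodes a short-lived anti-apoptotic protein, was the most abundant member per length in 3 of the 4 libraries. Set per kb of the longest annotated transcript, its level was 232.6, 217.6, 333.2 and 235.4 CPM per kb with CAF.CM + Wnt2 antibody, CAF.CM, Wnt2 and control medium. Bcl2a1b, one of the mouse A1 copies, came next with CAF.CM + Wnt2 antibody (90.1 CPM per kb), CAF.CM (142) and Wnt2 (156), and came first in control medium (298). The effector gene Bax followed at 49.6 to 58.2 CPM per kb. Bcl2, the founding member of the family, had the lowest level per kb of the 10 genes in every library, at 1.82, 2.50, 3.16 and 5.63 CPM per kb in the same order. That rank rests on the length used, 7191 bases for Bcl2, and in CPM Bcl2 was not the lowest member in any library. Of the summed CPM of the 5 anti-apoptotic genes, not corrected for length, Mcl1 held 87.7%, 82.3%, 85.7% and 69.9%, and Bcl2a1b held 8.12%, 12.8%, 9.62% and 21.1%. The share of Mcl1 was thus lowest, and that of Bcl2a1b highest, in control medium.

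The members differed in how much they varied over the 4 libraries. Bcl2a1d spanned 3.32-fold, Bcl2a1b 3.30-fold, Bcl2 3.09-fold and Bcl2l1 2.45-fold between their lowest and highest library, while the other members spanned between 1.17-fold (Bax) and 1.84-fold (Bbc3). The 4 widest were all anti-apoptotic and all highest in control medium.

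**Figure D1:**
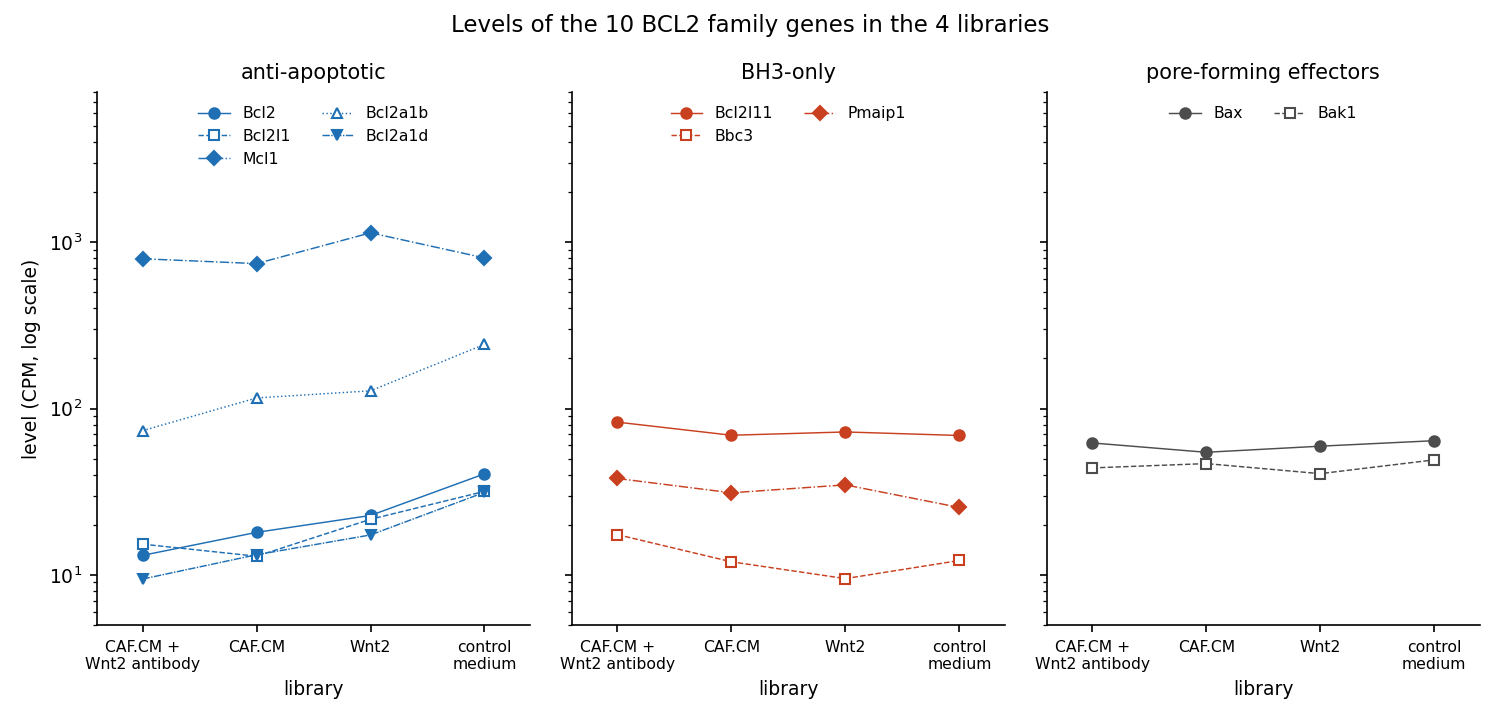
Level of each member in the 4 libraries, in CPM on a log axis, with one panel for each role. Points are single libraries and have no error bar, and lines only join the points of a gene. Bcl2, Bcl2l1, Bcl2a1b and Bcl2a1d are highest in control medium, where Bcl2a1b stands at 243 CPM, while Bax and Bak1 lie between 40.6 and 64.1 CPM throughout.

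Among the anti-apoptotic genes, Bcl2 was at 13.1 CPM with CAF.CM + Wnt2 antibody, 18.0 with CAF.CM, 22.8 with Wnt2 and 40.5 in control medium. Control medium stood highest and the antibody library lowest. With CAF.CM Bcl2 was 2.25-fold lower than in control medium (log2 ratio -1.17, interval -1.31 to -1.03), and with Wnt2 its log2 ratio to control medium was -0.83 (interval -0.89 to -0.77), which is within 2-fold. Between CAF.CM + Wnt2 antibody and CAF.CM its log2 ratio was -0.46 (interval -0.67 to -0.25).

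Bcl2l1, whose main product is the long-lived anti-apoptotic protein BCL-XL, was at 15.3 CPM with CAF.CM + Wnt2 antibody, 12.9 with CAF.CM, 21.6 with Wnt2 and 31.8 in control medium. The gene-level values do not separate the long and short splice forms of Bcl2l1 or of Mcl1, whose products are known to act in opposite ways. With CAF.CM Bcl2l1 was 2.45-fold lower than in control medium (log2 ratio -1.29, interval -1.46 to -1.14), and with Wnt2 its log2 ratio was -0.56 (interval -0.62 to -0.49). Between CAF.CM + Wnt2 antibody and CAF.CM its log2 ratio was positive, at 0.24 (interval 0.02 to 0.46).

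Mcl1 was at 795 CPM with CAF.CM + Wnt2 antibody, 744 with CAF.CM, 1139 with Wnt2 and 804 in control medium. Its highest library was the one given Wnt2, and the other libraries lay close together. The log2 ratio of Wnt2 to control medium was 0.50 (interval 0.49 to 0.51), that of CAF.CM to control medium was -0.11 (interval -0.14 to -0.09), and that of CAF.CM + Wnt2 antibody to CAF.CM was 0.10 (interval 0.07 to 0.13). None of these reached 2-fold.

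A1 is encoded in the mouse by several nearly identical gene copies on chromosome 9, and both copies among the members are shown here because their sequence limits what their counts mean. Bcl2a1b lies at chr9:89199209-89207827 on the plus strand and Bcl2a1d at chr9:88723285-88731914 on the minus strand (GENCODE M21 on GRCm38), and another listed copy, Bcl2a1a, lies at chr9:88956900-88962419 on the plus strand. Each has 516 coding bases. Bcl2a1b and Bcl2a1d differ at 6 of them (98.8% identical), Bcl2a1b and Bcl2a1a at 11 (97.9%), and Bcl2a1d and Bcl2a1a at 7 (98.6%). Of the 31-base words of the longest transcript, 88.8% for Bcl2a1b, 89.1% for Bcl2a1d and 79.6% for Bcl2a1a also occurred in a transcript of another gene. The first 90 coding bases hold 6 of the 12 positions at which the copies differ, and they are given with those positions in capitals (chr9:89199360-89199449 plus strand, chr9:88731630-88731719 minus strand and chr9:88957051-88957140 plus strand).
Bcl2a1b: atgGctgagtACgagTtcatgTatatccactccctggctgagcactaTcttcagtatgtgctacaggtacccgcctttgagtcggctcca
Bcl2a1d: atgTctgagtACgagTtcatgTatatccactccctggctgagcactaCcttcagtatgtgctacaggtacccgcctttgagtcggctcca
Bcl2a1a: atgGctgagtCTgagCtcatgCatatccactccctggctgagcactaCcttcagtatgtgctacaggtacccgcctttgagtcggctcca
Reads from the identical stretches, up to 217 bases between Bcl2a1b and Bcl2a1d and 314 between Bcl2a1d and Bcl2a1a, fit more than one copy. The sources used here do not say how the counting shared such reads out, so the values of single copies are uncertain, and the sum over the copies is given beside them. Bcl2a1b also overlaps the predicted gene Gm29094 on the same strand (not listed, 0.538, 2.82 and 4.67 CPM with CAF.CM + Wnt2 antibody, CAF.CM, Wnt2 and control medium), and Bcl2a1d overlaps Gm10634 on the other strand (1.08 to 2.32 CPM).

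Bcl2a1b was at 73.6 CPM with CAF.CM + Wnt2 antibody, 115.8 with CAF.CM, 127.8 with Wnt2 and 243.1 in control medium. Bcl2a1d was at 9.44, 13.2, 17.4 and 31.3 CPM and Bcl2a1a at 27.5, 35.5, 28.2 and 56.4 CPM in the same order. All 3 copies stood highest in control medium and lowest with CAF.CM + Wnt2 antibody. With CAF.CM Bcl2a1b was 2.10-fold lower than in control medium (log2 ratio -1.07, interval -1.12 to -1.02) and Bcl2a1d 2.37-fold lower (log2 ratio -1.24, interval -1.41 to -1.09), while Bcl2a1a was at -0.67 (interval -0.77 to -0.57). With Wnt2 the log2 ratios to control medium were -0.93 for Bcl2a1b (interval -0.95 to -0.90), -0.85 for Bcl2a1d (interval -0.92 to -0.78) and -0.997 for Bcl2a1a (interval -1.05 to -0.94), just within 2-fold.

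Summed over the 3 copies the level was 110.5 CPM with CAF.CM + Wnt2 antibody, 164.5 with CAF.CM, 173.4 with Wnt2 and 330.9 in control medium. The summed log2 ratio was -1.01 for CAF.CM against control medium (interval -1.05 to -0.96), -0.93 for Wnt2 against control medium and -0.57 for CAF.CM + Wnt2 antibody against CAF.CM. Of the reads of the 3 copies Bcl2a1b held 66.6%, 70.4%, 73.7% and 73.5%, and Bcl2a1a held 24.8% (exact Clopper-Pearson interval 23.2 to 26.6), 21.6% (20.4 to 22.9), 16.3% and 17.04% (16.7 to 17.4). The share of Bcl2a1a was thus higher in both CAF.CM libraries than in the other 2 beyond counting error, subject to how shared reads were assigned.

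**Figure D2:**
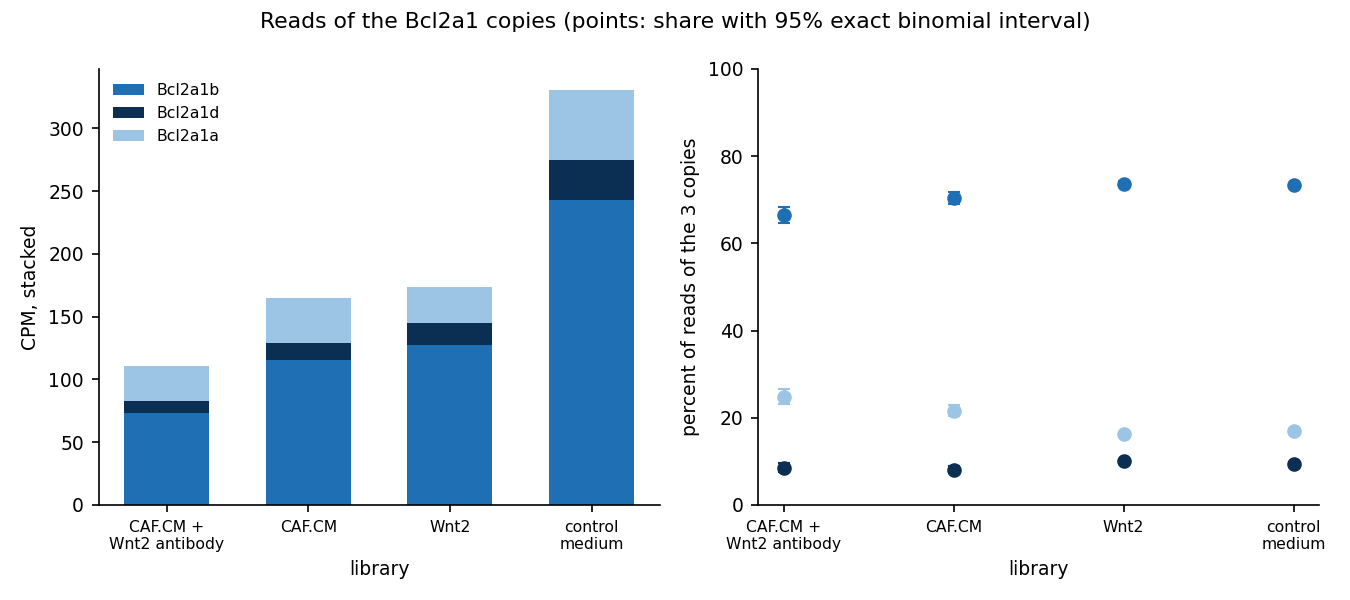
Stacked levels of the Bcl2a1 copies in CPM and their shares of the copies' reads in percent, by library, with exact 95% binomial intervals on the shares. The summed level is highest in control medium at 330.9 CPM, and the share of Bcl2a1a is 24.8% and 21.6% in the CAF.CM libraries against 16.3% and 17.04% in Wnt2 and control medium.

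The windows upstream of Bcl2a1b and Bcl2a1d are shown because both copies stood in the same order over the libraries and carry the same short match. Over 200 aligned bases they were 99.0% identical, a share that leaves out 100 gap positions counted over both windows. The sequences are the 250 bases before each start site (RefSeq, GRCm38.p6, chr9:89199023-89199272 plus strand and chr9:88731851-88732100 minus strand), with the match to TGANTCA, the motif of AP-1 factors, in capitals.
Bcl2a1b: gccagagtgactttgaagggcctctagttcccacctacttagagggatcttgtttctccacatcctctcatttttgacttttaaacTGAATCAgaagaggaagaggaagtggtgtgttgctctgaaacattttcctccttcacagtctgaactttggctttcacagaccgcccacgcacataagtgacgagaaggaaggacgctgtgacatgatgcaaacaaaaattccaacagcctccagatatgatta
Bcl2a1d: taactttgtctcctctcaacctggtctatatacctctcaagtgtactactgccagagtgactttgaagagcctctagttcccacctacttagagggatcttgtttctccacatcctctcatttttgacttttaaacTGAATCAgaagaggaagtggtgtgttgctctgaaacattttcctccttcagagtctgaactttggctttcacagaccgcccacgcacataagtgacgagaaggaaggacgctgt
The match begins 164 bases before the start of Bcl2a1b and 114 before that of Bcl2a1d, and Bcl2a1a has one 120 bases before its start. Windows from 250 bases before to 50 after each start were searched on both strands for 6 motifs, and TGANTCA occurred in 7.81% of 32851 such windows. The FOXO motif GTAAACA, in 3.65% of all windows, was found 227 bases before the start of Bcl2l11 and 167 before that of Bbc3, on its minus strand. The STAT motif TTCNNNGAA (8.30% of all windows), TATAAA (13.6%) and longer motifs of NF-kappaB (1.47%) and of the interferon response (3.44%) had 0 matches in the 16 windows of the members and their copies. Such matches describe the letters of these windows and show no binding.

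The BH3-only genes had narrower ranges. Bcl2l11, which encodes BIM, a direct activator of the effectors, was at 82.8 CPM with CAF.CM + Wnt2 antibody, 69.1 with CAF.CM, 72.3 with Wnt2 and 68.9 in control medium. Its log2 ratio was 0.07 for Wnt2 against control medium (interval 0.03 to 0.11), 0.005 for CAF.CM against control medium (interval -0.07 to 0.08) and 0.26 for CAF.CM + Wnt2 antibody against CAF.CM (interval 0.17 to 0.36). Bbc3, which encodes the p53-induced protein PUMA, was at 17.5, 11.98, 9.50 and 12.2 CPM in that order of libraries. It stood highest with CAF.CM + Wnt2 antibody and lowest with Wnt2, at log2 ratios of 0.54 to CAF.CM (interval 0.33 to 0.76) and -0.36 to control medium (interval -0.46 to -0.26). Its log2 ratio for CAF.CM against control medium was -0.03 and changed sign, to 0.03, under another scaling.

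Pmaip1, which encodes NOXA, a protein that binds MCL1 and A1, was at 38.0 CPM with CAF.CM + Wnt2 antibody, 31.1 with CAF.CM, 34.8 with Wnt2 and 25.4 in control medium. Control medium was its lowest library. Its log2 ratio to control medium was 0.45 with Wnt2 (interval 0.39 to 0.51) and 0.29 with CAF.CM (interval 0.18 to 0.40). No BH3-only gene reached 2-fold in any comparison.

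The effector genes, whose products form the pore, spanned 1.17-fold (Bax) and 1.21-fold (Bak1) over the libraries. Bax was at 62.1 CPM with CAF.CM + Wnt2 antibody, 54.6 with CAF.CM, 59.4 with Wnt2 and 64.1 in control medium, and Bak1 was at 44.0, 46.7, 40.6 and 49.1 CPM. Their log2 ratios to control medium were -0.11 and -0.28 with Wnt2 (intervals -0.15 to -0.07 and -0.33 to -0.23), and -0.23 and -0.07 with CAF.CM (intervals -0.31 to -0.15 and -0.16 to 0.01). Bax shares 15.3% of its 31-base words with other transcripts and overlaps Gm45808 on the same strand. Bak1 overlaps Ggnbp1 on the other strand (11.1 to 13.98 CPM), and the sources used here do not say whether counting used strand.

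The first comparison asks which genes Wnt2 acts on in dendritic cells, in the terms of the series title. With Wnt2 0 of 10 members were at least 2-fold lower and 0 at least 2-fold higher than in control medium, against 2.93% and 2.87% of all 13120 genes compared. At 1.5-fold 3 members were lower (Bcl2 and the near-identical copies Bcl2a1b and Bcl2a1d), against 8.0% of all genes (1049). At that threshold 0 were higher, against 7.38%. The median log2 ratio of the members was -0.32, beside -0.02 over all genes. Bcl2a1b, Bcl2a1d and Bcl2 lay where 3.46%, 4.18% and 4.35% of all genes had a lower log2 ratio, and Mcl1 and Pmaip1 where 90.9% and 89.5% did. In the authors' deposited table an adjusted p under 0.05 was given to 4 members, all lower with Wnt2 (Bcl2a1b 1.19e-04, Bcl2a1d 6.3e-04, Bcl2 8.6e-04 and Bcl2l1 0.047), against 8.0% of all genes that were lower by that rule and 7.36% that were higher. The dispersion behind those p-values is not stated.

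With CAF.CM 4 of 10 members were at least 2-fold lower than in control medium, namely Bcl2, Bcl2l1, Bcl2a1b and Bcl2a1d, and 0 were higher, against 8.69% lower and 6.68% higher of all 13329 genes compared. Their folds ran between 2.10 and 2.45. With the authors' scaling each of their 4 intervals lay wholly beyond 2-fold, but with DESeq2 factors, total reads or newly computed TMM factors those of Bcl2 and Bcl2a1b reached within it, to -0.97 and -0.96 with total reads. Bcl2a1b and Bcl2a1d are nearly identical copies whose reads can fit either, so their calls are not separate. Summed over the listed copies the log2 ratio was -1.01 (interval -1.05 to -0.96), and that interval reaches within 2-fold. The same sharing bears on the member counts of the other comparisons. The fibroblast gene Dcn was 20.2-fold higher with CAF.CM than in control medium, and its part in these values was not tested. The median log2 ratio was -1.17 over the 5 anti-apoptotic genes, 0.005 over the 3 BH3-only genes and -0.15 over both effectors, beside -0.04 over all genes. In the authors' deposited table these 4 genes, and no other member, had an adjusted p under 0.05, between 6.89e-08 for Bcl2l1 and 2.78e-06 for Bcl2a1b, against 18.8% of all genes that were lower by that rule and 13.9% that were higher. At 1.5-fold the count was again 4 lower and 0 higher, against 17.9% and 13.8% of all genes.

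With the Wnt2 antibody in CAF.CM 0 of 10 members differed 2-fold from CAF.CM alone, against 3.65% lower and 1.02% higher, together 4.67%, of all 13072 genes compared. At 1.5-fold Bcl2a1b alone was lower, against 10.7% of all genes, and 0 members were higher, against 4.40%. The log2 ratios of Bcl2, Bcl2a1b and Bcl2a1d were -0.46, -0.65 and -0.48, so that these genes stood further from control medium with the antibody than without it, while Bcl2l1 was at 0.24. All 3 BH3-only genes had positive log2 ratios, with a median of 0.28, beside -0.04 over all genes. In the authors' deposited table Bcl2a1b alone had an adjusted p under 0.05, at 0.031, against 5.55% of all genes that were lower by that rule and 1.42% that were higher.

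Between CAF.CM + Wnt2 antibody and control medium 4 of 10 members were at least 2-fold lower, against 12.6% of all genes compared, and 0 were higher, against 8.10% (together 20.7%). The same held for the count at 1.5-fold, against 23.9% lower and 17.4% higher of all genes. The near-identical copies Bcl2a1d and Bcl2a1b were 3.31-fold and 3.30-fold lower, and Bcl2 was 3.09-fold lower. Bcl2l1 was at -1.05 (interval -1.21 to -0.90), and under DESeq2 or newly computed TMM factors it was at -0.97, within 2-fold, which leaves 3 genes. Bbc3 and Pmaip1 were at 0.52 and 0.58. Mcl1 was at -0.02 and Bax at -0.04, and both changed sign, to 0.07 and 0.04, under another scaling. Set against Wnt2, CAF.CM gave 0 members 2-fold apart, against 6.46% lower and 4.31% higher (together 10.8%) of all genes compared. Bcl2l1 was at a log2 ratio of -0.74 and Mcl1 at -0.62. They were the only members 1.5-fold lower, against 15.0% of all genes, and 0 were 1.5-fold higher, against 10.4%. Mcl1 was so only with the authors' scaling, and not with DESeq2 factors, newly computed TMM factors or total reads (-0.56 with total reads). Bcl2a1d was at -0.40, Bcl2 at -0.34 and Bcl2a1b at -0.14. These comparisons share the control medium, Wnt2 or CAF.CM library, so their values stand side by side and are not independent.

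**Figure D3:**
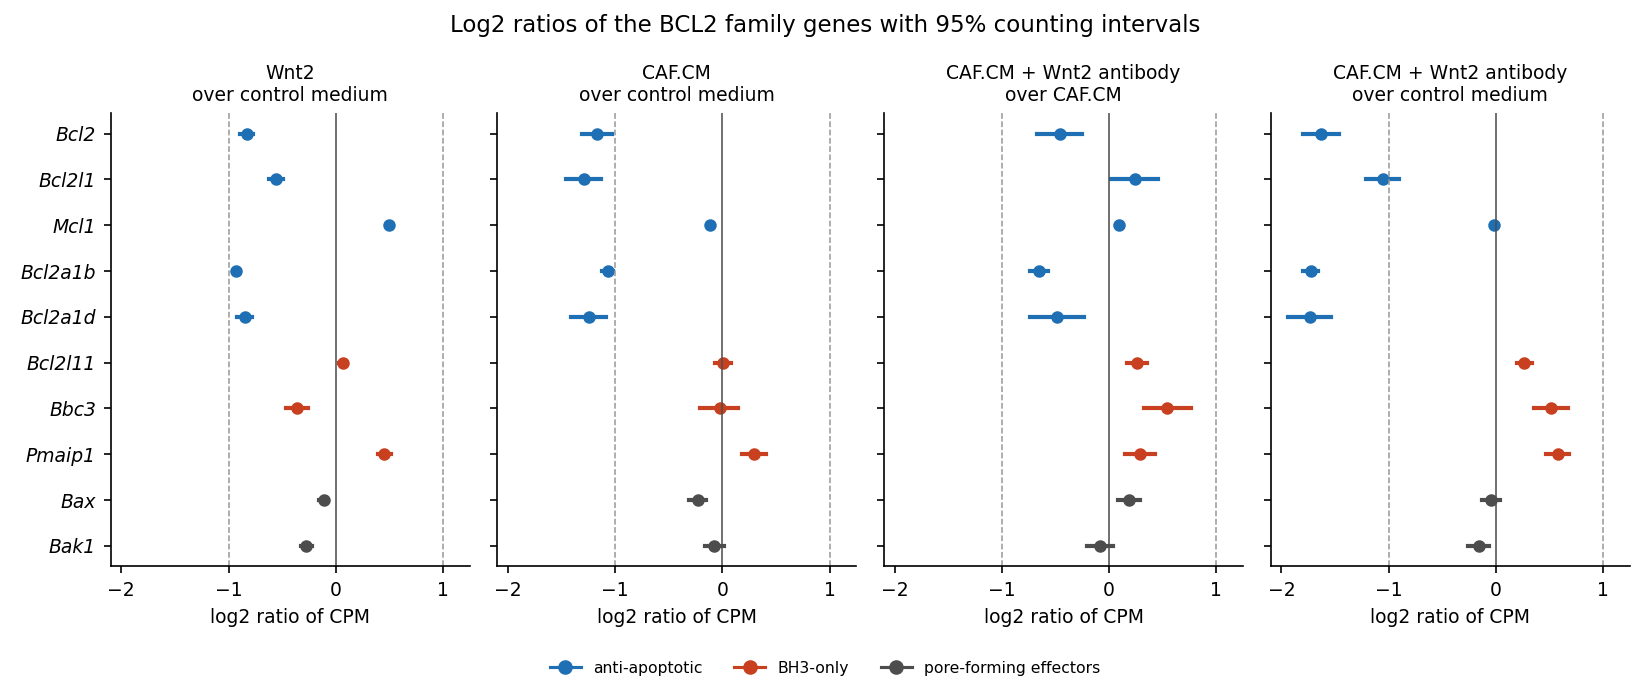
Log2 ratio of CPM of each member in 4 comparisons, with 95% exact binomial intervals (counting error only, with the authors' scaling) and dashed lines at 2-fold. For CAF.CM over control medium the intervals of Bcl2, Bcl2l1, Bcl2a1b and Bcl2a1d lie beyond the lower line, and no member passes the upper line.

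**Figure D4:**
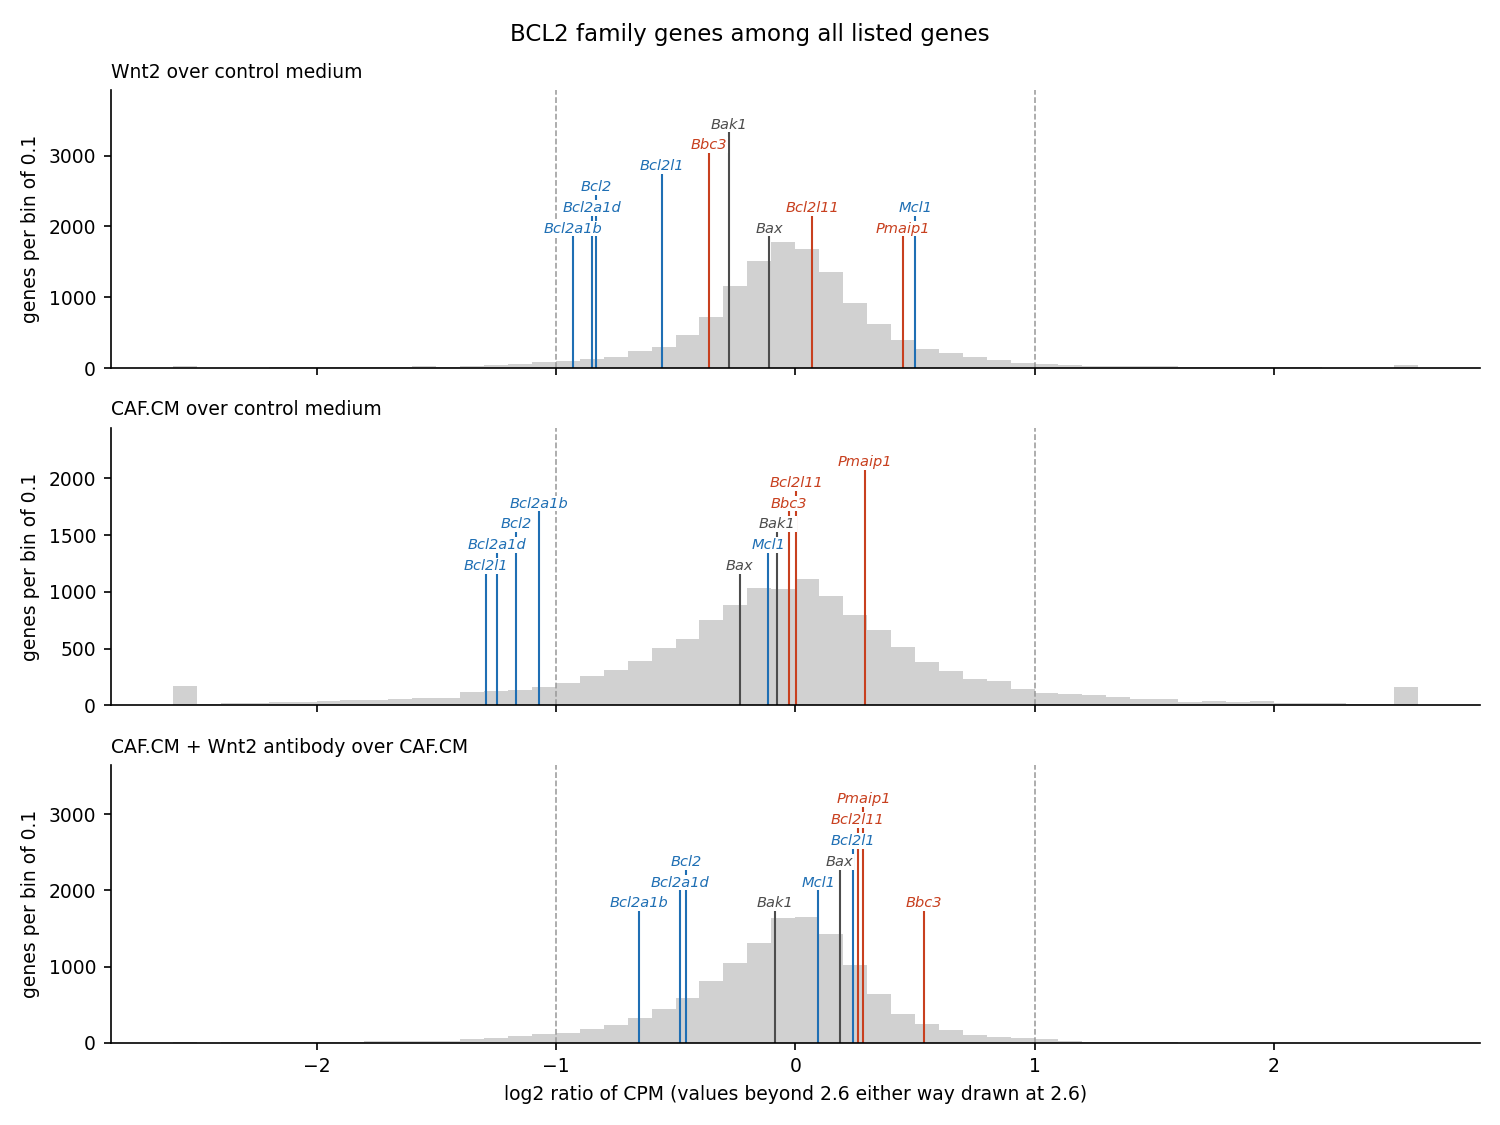
Histogram of the log2 ratios of all genes in bins of 0.1 (grey, number of genes) with vertical lines at the 10 members, coloured by role, and dashed lines at 2-fold; ratios beyond the axis are drawn at its ends. For CAF.CM over control medium 8.69% of all genes lie beyond the lower dashed line. So do 4 of the 10 members, among them the near-identical copies Bcl2a1b and Bcl2a1d. For Wnt2 over control medium no member does.

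Ratios of reads within a library do not depend on the scaling between libraries. There were 5.41 Bcl2l11 reads for each Bcl2l1 read with CAF.CM + Wnt2 antibody (interval 4.83 to 6.08), 5.34 with CAF.CM (4.75 to 6.01), 3.35 with Wnt2 (3.22 to 3.48) and 2.17 in control medium (2.09 to 2.25). The intervals of both CAF.CM libraries overlapped each other and neither overlapped that of Wnt2 or control medium. Bax reads for each Bcl2l1 read stood at 4.06, 4.22, 2.75 and 2.02 in the same order. Bcl2l11 reads for each Mcl1 read were 0.104, 0.0929, 0.0635 and 0.0856, lowest with Wnt2, where Mcl1 was highest, and Bbc3 reads for each Mcl1 read were 0.0220, 0.0161, 0.00834 and 0.0152. Bcl2a1d reads for each Bcl2l11 read were 0.114, 0.191, 0.240 and 0.455, a span in which no interval overlapped another. The number of Bcl2a1d reads depends on how reads shared with its copies were assigned, which the intervals do not cover. All these ratios are of reads on genes of unequal length and say nothing of the amounts of protein.

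**Figure D5:**
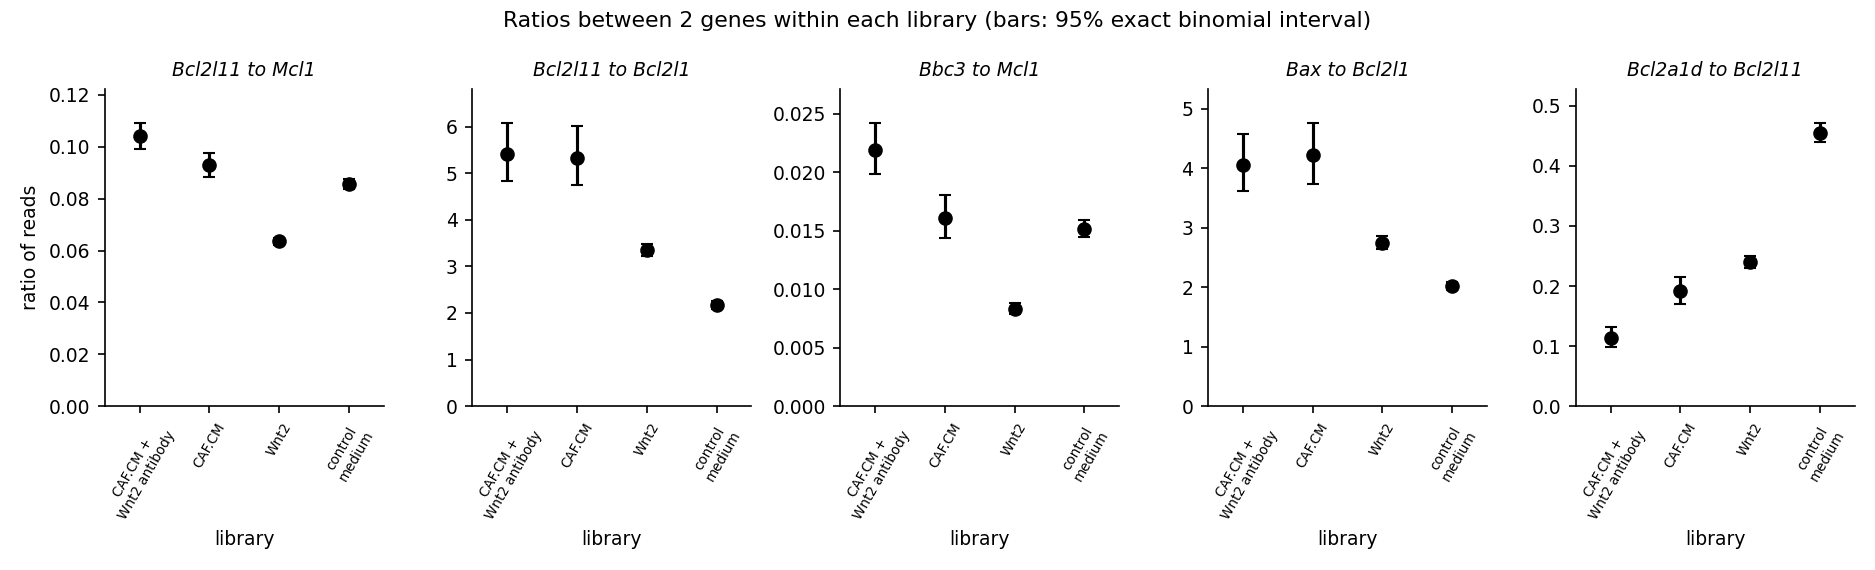
Reads of one gene for each read of another within the same library, for pairs of members, with 95% exact intervals (counting error only). Bcl2l11 reads for each Bcl2l1 read stand at 5.41 and 5.34 in both CAF.CM libraries, 3.35 with Wnt2 and 2.17 in control medium.

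Of 16 other BCL2 family and BH3-like genes, 9 were listed. Bnip3, a hypoxia-induced mitophagy receptor with a BH3-like stretch, was at 193.6 CPM with CAF.CM + Wnt2 antibody, 203.5 with CAF.CM, 285.1 with Wnt2 and 101.0 in control medium. It was higher than in control medium with Wnt2 (log2 ratio 1.497) and with CAF.CM (1.01), the only one of the 9 to reach 2-fold in either, and the list medians were -0.02 and -0.04. Bmf, a BH3-only gene linked to loss of adhesion, was at 43.7, 52.9, 87.3 and 54.5 CPM in the same order, and Bid and Bad lay between 12.2 and 15.2 CPM throughout.

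Downstream of the mitochondria, 0 of 15 apoptosome and caspase genes differed 2-fold in any of the 3 comparisons with a deposited table, among them Apaf1 (56.4, 52.8, 83.4 and 72.9 CPM with CAF.CM + Wnt2 antibody, CAF.CM, Wnt2 and control medium). Of 9 inhibitors of apoptosis 0 were 2-fold apart with Wnt2. With CAF.CM 3 were higher, and the list median was 0.49. They were Birc2 (log2 ratio 1.15, 94.4 against 42.6 CPM in control medium), which encodes the ubiquitin ligase cIAP1, Naip2 (1.07), a sensor of bacterial proteins, and Birc5. Birc5, which acts in cell division, was at a log2 ratio of 1.01 (interval 0.48 to 1.56, at 1.58 against 0.770 CPM). Of 9 genes of the mitochondrial outer membrane and its dynamics 0 differed 2-fold in these comparisons.

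Of the 12 listed genes of the death receptor pathway 0 differed 2-fold with Wnt2. In CAF.CM 4 genes were higher and 3 lower than in control medium. The higher ones were led by Traf1 (log2 ratio 1.76), a signalling adaptor, and Fas (1.36, at 28.1 against 10.9 CPM in control medium), a death receptor, with Tnfsf10, the gene of the ligand TRAIL, at 1.24. The lower ones were Fadd (-1.10, at 2.38 against 5.14 CPM in control medium), Tnf (-1.05) and Tradd (-1.02). With the antibody Tnfsf10 was lower than with CAF.CM alone (log2 ratio -1.65), and so was Fadd (-1.32, interval -2.18 to -0.66, at 0.905 against 2.38 CPM). Of 9 listed necroptosis and pyroptosis genes 0 differed with Wnt2 and 3 were higher with CAF.CM, Zbp1 (1.97), Casp4 (1.32) and Mlkl (1.11), and Zbp1 was lower with the antibody than with CAF.CM alone (-1.20).

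Among the inputs known to act on the family, 1 of 16 listed p53 pathway genes was lower with Wnt2, the kinase gene Plk2 (log2 ratio -1.91), and 0 were higher. With CAF.CM Plk2 was lower (-1.62) and the cell cycle inhibitor gene Cdkn1a higher (1.08), with a list median of 0.08, and with the antibody Zmat3 was higher than with CAF.CM alone (1.08). Of 6 FOXO and CHOP genes, the pseudokinase gene Trib3 was lower with Wnt2 (-1.30) and with CAF.CM (-1.76). Chac1 was lower with CAF.CM (-2.31, interval -3.53 to -1.44), at 0.346 CPM against 1.81 in control medium. A read was worth 0.0384 CPM in the CAF.CM library, so that value of Chac1 rests on few reads. Of 7 genes of MCL1 protein turnover, Trib1 was higher with Wnt2 (1.66), and 0 differed 2-fold with CAF.CM or with the antibody.

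Of 13 genes of GM-CSF and IL-4 survival signalling, the cytokines of the culture, 0 were 2-fold apart between Wnt2 and control medium, while in CAF.CM 4 stood higher than in control medium and 1 lower. Csf2ra, the GM-CSF receptor alpha chain gene, was the lower one (log2 ratio -1.89, 50.6 against 187.7 CPM in control medium). Cish (1.94), a feedback inhibitor that STAT5 induces, and Pim3 (1.30), a survival kinase gene, led the higher ones. Pim3 also stood above control medium with Wnt2, at a log2 ratio of 0.999 (interval 0.92 to 1.08), just within 2-fold. The counts of all these lists are descriptions of single libraries. Beside them, 15.4% of all genes were 2-fold apart in either direction with CAF.CM and 5.80% with Wnt2, both against control medium. With the antibody against CAF.CM alone the share was 4.67%.

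The genes whose log2 CPM, centred over the 4 libraries, lay nearest to the 3 widest-ranging members were searched among 10321 genes. Nearest to Bcl2a1d were Tnfrsf11a, the RANK receptor gene (Euclidean distance 0.07), Bcl2 (0.08) and Mcur1 (0.10), and nearest to Bcl2a1b were Calhm2 (0.06), Tnfsfm13 (0.10) and Trim29 (0.10). Nearest to Bcl2 were Bcl2a1d (0.08), Tnfrsf11a (0.10) and Sirpa (0.12). Sirpa was at 324.7, 405.9, 557.8 and 1010 CPM with CAF.CM + Wnt2 antibody, CAF.CM, Wnt2 and control medium. The distance rests on 4 libraries and is a description.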

How the data were processed

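Stranded total RNA libraries were made from 1 ug of RNA after removal of ribosomal RNA, per the labels' protocols. The submitters' processing notes name STAR 2.4.2a, RSEM 1.2.29, edgeR, GRCm38.p5 and mm10, with no settings. The authors deposited normalized CPM in 3 tables, 1 per comparison, with log2 fold changes and p-values that their file headers name. Triplicates are mentioned in the series text, and the sources used here do not say if a column pools several libraries. A library present in 2 tables had the same values in both, for 12848 of 12848 genes for CAF.CM and 12954 of 12954 for control medium. Genes absent from a table are not listed here and not shown to be unexpressed.

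The plan had allowed for counts. The CPM of each library were whole multiples of 1 step (0.0431, 0.0384, 0.00651 and 0.00706 CPM with CAF.CM + Wnt2 antibody, CAF.CM, Wnt2 and control medium) within 0.1 step, and reads were taken from these steps. Log2 ratios used the authors' effective library sizes and a prior count of 2, over all listed genes. Intervals were exact conditional binomial at 95%. Python 3.11.15, numpy 2.4.6, pandas 2.3.3, scipy 1.17.1, matplotlib 3.10.9, Biopython 1.88, R 4.3.3, edgeR 4.0.16 and DESeq2 1.42.0 (scaling factors only) were used, and the steps were tested on simulated data. No test was run, since each group has 1 library.

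The members, gene lists and comparisons were chosen with earlier results of these data known. Genes named from a list are among the 3 with the largest ratio, at least 100 reads over both libraries and at least 2-fold, and the nearest genes had at least 5 CPM in 1 library. Apaf1, Bmf, Bid, Bad, Lyz2, Irf4, Zbtb46, Ccr7, Batf3, Adgre1, Fcgr1, Tnf and Tradd fall outside that rule, as does Fadd in the comparisons given. These genes, like the values of Bcl2a1a, were chosen after their values were seen. Cd209a, which was not listed, falls outside the rule too. Positions and transcripts came from GENCODE M21, and promoters from RefSeq on GRCm38.p6. Protein sequences were not used here.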

Additional observations from a re-analysis of the deposited data

How the results depend on the processing

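Over the 5 comparisons, 380 alternative values of the members' log2 ratios were computed. Of these 0 reversed a called ratio, 363 stayed within the counting interval and 17 left it. The alternatives were DESeq2 size factors, total reads, newly computed TMM factors, prior counts of 0.5 and 5, at least 100 reads, the deposited log2 fold change (where a table exists) and protein-coding genes only. Those of CAF.CM against Wnt2, and the intervals under other scalings, were chosen after seeing the data. The settings of at least 100 reads and of protein-coding genes only select genes and leave each member's ratio as it was. Their values thus stayed within the interval by construction, and only called ratios could be counted as reversed. At a 1.5-fold threshold 3 members were lower in Wnt2 than in control medium, 1 was lower with the antibody than with CAF.CM alone and 2 in CAF.CM than with Wnt2, against 0 each at 2-fold. Apart from these values, summing the Bcl2a1 copies gave -0.93 in place of the single value of Bcl2a1d for Wnt2, -1.01 in place of Bcl2a1b and of Bcl2a1d for CAF.CM, and -1.58 in place of Bcl2a1b for the antibody library, all against control medium, and -0.076 in place of Bcl2a1b and of Bcl2a1d for CAF.CM against Wnt2. Scaling moved the median of all genes by under 0.1 in each comparison. Over all genes, 133 were 2-fold higher with the antibody than with CAF.CM alone, against 47 with at least 100 reads and 79 among protein-coding genes.

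No paired analysis was possible because each group has 1 library, and no library was left out for the same reason. A read was worth 0.0431 CPM in the antibody library, where Bcl2a1d rests on 219 reads, the fewest of any member there. Intervals do not cover the spread between cultures.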
